A study of Mus musculus with 24 samples.

Results

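Interferon response genes are the genes that liver cells and their resident immune cells switch on after an interferon signal. The 40 genes described here were chosen by name as a fixed list, and each was read from its brightest probe over all arrays. All 40 were found by gene name on the array, on 65 probes, among 37074 named genes. They divide into 25 members typical of type I interferon and 15 typical of interferon gamma, although many answer to both.

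Type I interferons act on genes through a complex that holds STAT2 and IRF9 and binds the interferon-stimulated response element (ISRE). Interferon gamma, made mainly by T and NK cells, acts on genes through the gamma-activated site (GAS), and IRF1 carries part of that response. The products block viral translation and replication (Ifit, Oas and Mx families), attack intracellular pathogens (guanylate-binding proteins and immunity-related GTPases), feed peptides to MHC class I (Tap1 and immunoproteasome subunits) and recruit T cells (Cxcl9 and Cxcl10).

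RNA came from whole livers of C57 BL/6J mice aged 68 weeks and was hybridised to 1-colour Agilent arrays. The labels give 4 groups of 6 arrays, control and pesticide diet in male mice and then in female mice, each diet having been given for 52 weeks, and values of 4 groups below follow in that order. The pesticides are not named in the labels, and no mouse number is given, so p-values measure the spread between these samples, which may be technical. Levels are log2 intensities of 1 probe, so they are compared between arrays and not between genes.

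The labels of sex and diet cannot both be read at face value. Xist, transcribed from the inactive X of female cells, was above the Y-linked Eif2s3y on 12 labelled pesticide arrays and on 0 labelled control arrays. The 6 arrays labelled female control and the 6 labelled male pesticide thus went against their sex label. Groups are therefore called labelled throughout, and a difference between labelled diets cannot be told apart from a difference between sexes. By Pearson correlation over all tested probes, labelled female control array 4 stood apart, with a median r of 0.9856 to the others of its group, and results are given with and without it. Where the text on diets says array 4 with no group, this array is meant. Hepatocyte markers were bright on every array, with Alb, the albumin gene, at 18.86 to 18.91; quantile normalization leaves the brightest probes little room to differ. Because tissue RNA is bulk, more cells of a type and more RNA per cell cannot be told apart.

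The promoters show a sequence feature that many, but not all, of the members hold. Promoter windows of 300 bases, 250 before and 50 after the gene's start, were held for 31 of the 40 members in the RefSeq table on GRCm38. The ISRE core, written as GAAA, any 2 bases and GAAA on either strand, lay in 18 of those 31 (58.1%), against 3.99% of 27025 genes in the table. It was in 11 of 18 type I members and 7 of 13 gamma-type members. The GAS, TTCNNNGAA, was in 3 of 18 type I and 5 of 13 gamma-type members, against 9.55% of all genes. The GAS is its own reverse complement, and matches of both motifs were allowed to overlap. ISRE windows of 6 members are shown because these genes recur in the results; capitals mark the matches, and a match on the opposite strand reads TTTC, any 2 bases and TTTC.
Isg15 (chr4:156200860-156200911, minus strand): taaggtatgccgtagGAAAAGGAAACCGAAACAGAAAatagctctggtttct
Ifit1 (chr19:34640770-34640828, plus strand): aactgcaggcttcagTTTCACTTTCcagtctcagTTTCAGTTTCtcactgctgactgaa
Ifit3 (chr19:34583358-34583431, plus strand): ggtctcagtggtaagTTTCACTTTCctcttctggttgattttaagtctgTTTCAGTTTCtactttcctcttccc
Gbp2 (chr3:142620589-142620628, plus strand): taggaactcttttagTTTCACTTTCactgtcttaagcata
Gbp3 (chr3:142559984-142560029, plus strand): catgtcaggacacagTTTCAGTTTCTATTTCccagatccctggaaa
Cxcl10 (chr5:92349078-92349117, minus strand): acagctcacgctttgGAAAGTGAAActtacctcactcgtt
Windows with a GAS match are shown for 3 gamma-type members, with the match in capitals.
Irf1 (chr11:53769909-53769947, plus strand): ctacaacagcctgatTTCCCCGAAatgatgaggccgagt
Tgtp2 (chr11:49064270-49064308, minus strand): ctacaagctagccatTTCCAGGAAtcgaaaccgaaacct
Igtp (chr11:58199496-58199534, plus strand): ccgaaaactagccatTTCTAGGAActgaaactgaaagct
In Tgtp2 and Igtp the GAS lies directly upstream of the ISRE core, whose letters continue in lower case. A match describes the letters in the window and not a site in use.

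The largest differences in the list lay between single arrays of the labelled control groups, not between the labelled diets. Over the 25 type I members the mean log2 level ran from 8.88 to 11.04 in labelled male control, from 9.93 to 10.67 in labelled male pesticide, from 9.16 to 10.80 in labelled female control and from 9.75 to 10.14 in labelled female pesticide, with medians of 9.37, 10.02, 9.53 and 9.95. Over the 15 gamma-type members the ranges were 9.73 to 10.87, 10.43 to 11.27, 9.77 to 12.70 and 10.41 to 10.70, with medians of 10.04, 10.54, 10.20 and 10.58. Labelled control arrays were thus both the lowest and the highest, and the labelled pesticide arrays lay between. The SD of the mean over all 40 members was 0.631 in labelled male control and 0.790 in labelled female control (n = 6 each), and 0.377 in the latter without array 4 (n = 5). In the labelled pesticide groups it was 0.285 in males and 0.113 in females (n = 6 each).

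**Figure D1:**
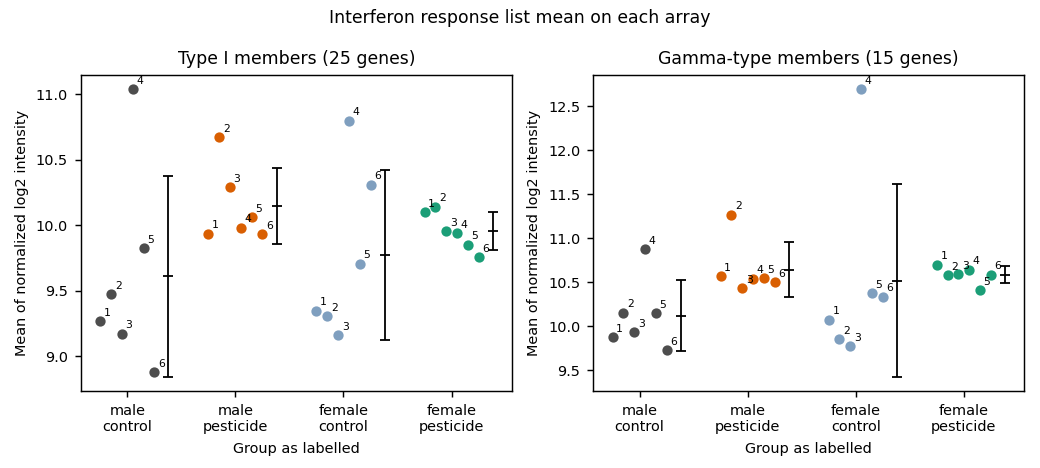
Mean normalized log2 intensity of the 25 type I members (left) and the 15 gamma-type members (right) on each of the 24 arrays, by labelled group. Points are arrays with their replicate number, and bars are the group mean with SD over 6 arrays. Labelled male control 4 has the highest type I mean (11.04) and labelled female control 4 the highest gamma-type mean (12.70).

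Labelled male control array 4 was high mainly in type I members. Its type I mean was 1.67 above its group median and its gamma-type mean 0.83 above. It was the highest of 24 arrays for 14 of 25 type I members and for 1 of 15 gamma-type members. Usp18, the protease that removes ISG15 and damps the receptor, lay 2.84 above its group median, Ifi44 2.78, Mx2 2.73, Ifit1 2.69 and Isg15, the ubiquitin-like modifier, 2.53. Irf7, the factor that amplifies type I interferon, reached 15.59 there against 12.89 to 13.39 on the other 5 arrays of the group. Of the gamma-type members, 5 of 15 lay more than 1 above their median, namely Igtp (1.99), Gbp6 (1.91), Irgm1 (1.61), Gbp3 (1.43) and Tgtp2 (1.30). Gbp2 lay 0.21 above its median, Cxcl9 0.11 above and Irf1 0.25 below (-0.25). Ifng, the gene of interferon gamma, was at 5.31 on that array, where it was not well above background. The mean of 12 T and NK cell markers was 0.30 below its group median there (-0.30).

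Labelled female control array 4 was high in both kinds, and most in gamma-type members. All 15 gamma-type members and 17 of 25 type I members lay more than 1 above their group median, and the list means were 2.49 and 1.27 above. It was the highest of 24 arrays for 14 of 15 gamma-type members. Tgtp2, an immunity-related GTPase, lay 4.67 above its median, Ubd, a ubiquitin-like protein, 4.20, Gbp6 3.69, Cxcl9 3.43 and Igtp 3.09. Ifng was at 7.95 on this array and between 5.22 and 5.84 on the other 5 of the group. It was well above background on 3 arrays of the group, this array among them. The mean of the T and NK markers was 2.11 above its group median, that of the Kupffer cell markers 1.36 above and that of the dendritic cell markers 1.08 above; Ccl5 was at 14.60, Gzma at 10.29 and Cd3d at 9.67. Their part in the result was not tested.

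Labelled female control array 6 and labelled male pesticide array 2 stood out less. On the former, the type I mean was 0.78 above its group median, with Usp18 at 2.12, Oas1a at 1.80 and Ifi44 at 1.17 above, while the gamma-type mean was 0.13 above and the T and NK markers were 0.15 below (-0.15). On the latter, both kinds were raised, by 0.65 and 0.72. At the other end, labelled male control array 6 was the lowest of 24 for 16 of 25 type I members.

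**Figure D2:**
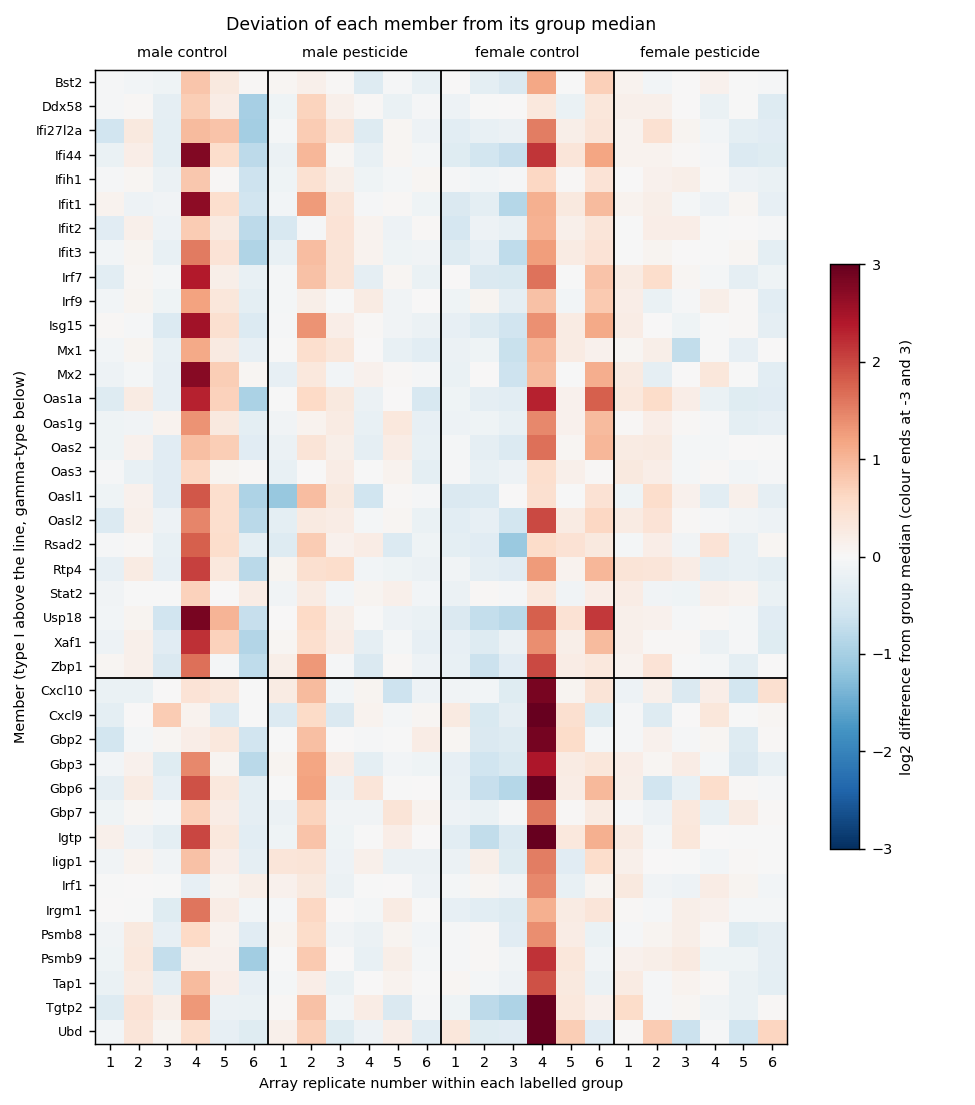
Difference of each of the 40 members (rows) from the median of its labelled group on each of 24 arrays (columns), on the log2 scale. Labelled male control 4 is high mostly above the line, in type I members, whereas labelled female control 4 is high in all 15 gamma-type members below it.

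The members moved together among arrays of the same label. After the group means were subtracted, 77.1% of the variance of the 40 members fell on their first principal component, against 14% over all tested probes. It held 87.4% for type I and 85.3% for gamma-type members, and without labelled female control 4 these were 86.7% and 65.3%. The sets of 40 members and 32057 probes are unlike in size, so the gap between their shares measures no excess. Labelled female control 4 had the largest weight for all and for gamma-type members, and labelled male control 4 for type I members. Without the former, labelled male control 4 had the largest weight in each of these lists. Leaving out both was not tested. The median SD within groups was 0.611 over the members (0.444 without that array), against 0.183 over all tested probes. Tgtp2 had an SD of 1.12 (0.483 without), Gbp6 0.996, Ubd 0.969 and Usp18 0.941, while Stat2, a subunit of the ISRE-binding complex, had 0.207 and Oas3 0.248. The members thus varied about their group means more than the median probe did.

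The comparison of labelled diets in labelled males called 10 of 40 members higher and 0 lower (limma, adjusted p under 0.05 over all tested probes). Over all tested probes 11.6% were called higher and 10.7% lower, 22.2% in all, so 25% of members called higher stands beside that background. Called were 6 of 25 type I and 4 of 15 gamma-type members, and the median log2 difference of the members was 0.54 against -0.03 over all probes. In labelled females 0 members were called higher and 1 lower, beside 8.88% and 9.44% of all probes (18.3% in all), and the median was 0.14. At an unadjusted p under 0.05, 9 members (22.5%) passed in labelled females, against 31.7% of all probes, and 13 (32.5%) in labelled males, against 34.5%. Averaged over the labelled sexes 11 members were called higher and 1 lower, beside 17.5% and 18.6% of all probes (36.1% in all).

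These counts turned on single arrays. Without labelled female control 4, 12 members were called higher in labelled females and 1 lower, beside 10.1% of all probes called higher, 13 and 1 in labelled males, and 18 and 1 on average, beside 18% called higher. The labelled female median was then 0.42. Without labelled male control 4, 18 members were called in labelled males, beside 19.1% of all probes, of which 14 were type I, among them Ifit1 (log2 difference 1.10), Isg15 (0.98), Ifi44 (1.52) and Rtp4 (1.05). Without labelled male control 1, 3 or 6 the count was 6, beside 18.6%, 19.9% and 19.6% of all probes, and without labelled male pesticide 2 or 3 it was 5, beside 20.9% and 18.5%. In labelled females it was 2 without labelled male control 6 or labelled female control 6, beside 19% and 14.9%. The mean over all 40 members was 0.53 higher in labelled male pesticide than control, about the size of the pooled SD of 0.528, and 0.14 higher in labelled females (0.43 without array 4). By slide, the labelled male difference was 0.92, 0.05 and 0.62 and the labelled female difference 0.75, -0.25 and -0.07; both high control arrays, male 4 and female 4, lay on slide 2.

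**Figure D3:**
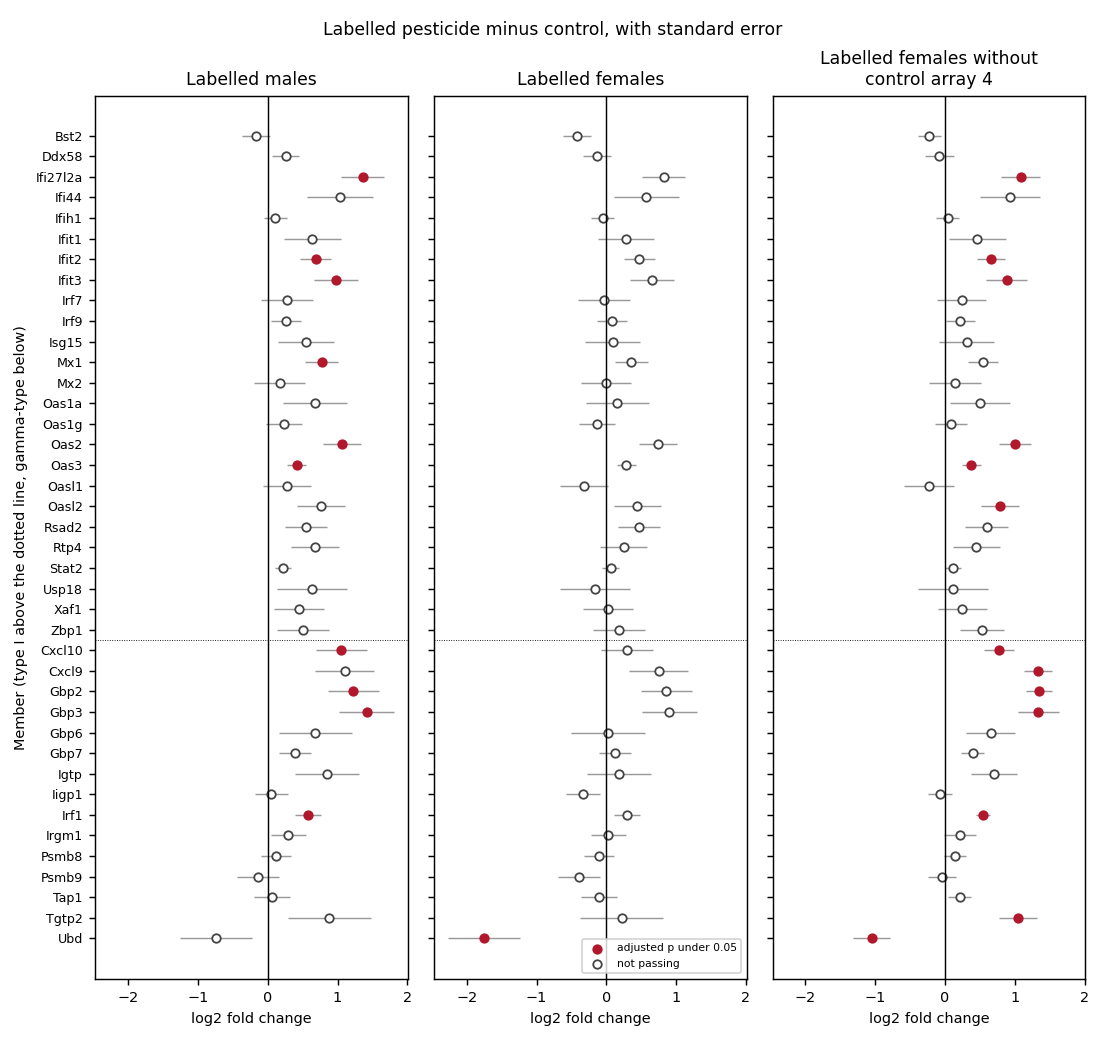
Log2 difference, labelled pesticide minus control, with SE, for each member in labelled males, labelled females and labelled females without control array 4; filled points passed at an adjusted p under 0.05. Higher members number 10, 0 and 12 in the panels, and Ubd is the member called lower in labelled females, with and without that array.

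Among the Ifit, Oas and Mx families, 5 of 11 members rose in labelled males and 0 in labelled females. Over all probes 11.6% and 8.88% were called higher. Without array 4 these counts were 6 and 5, beside 12.4% and 10.1% of all probes. Oas2, which makes the second messenger that activates RNase L, was at 9.14, 9.49 and 10.39 (lowest, median and highest) in labelled male control and at 10.43, 10.69 and 11.08 in labelled male pesticide. It was at 9.07, 9.48 and 11.14 in labelled female control and at 10.42, 10.48 and 10.74 in labelled female pesticide. The labelled male groups did not overlap, and the labelled female groups overlapped through control arrays 4 and 6. The log2 difference was 1.06 ± 0.27 (SE, adjusted p = 0.00735) in labelled males and 0.74 ± 0.27 (adjusted p = 0.0639) in labelled females, or 1.00 ± 0.23 (adjusted p = 0.0031) without that array.

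Ifit3, which binds and steadies the RNA-sensing IFIT1, was at 8.43, 9.33 and 10.90 in labelled male control and 10.07, 10.30 and 11.23 in labelled male pesticide. It was at 8.80, 9.55 and 10.80 in labelled female control and 10.03, 10.32 and 10.39 in labelled female pesticide. Both pairs of groups overlapped, through the high control arrays. It rose by 0.98 ± 0.31 in labelled males (adjusted p = 0.027), and the labelled female difference of 0.65 ± 0.31 did not pass (adjusted p = 0.156). Its near copy Ifit3b, outside the list, may share signal with this probe and rose by 0.85 in labelled males.

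Ifit2, a binder of viral RNA, was at 5.81, 6.60 and 7.35 in labelled male control and 6.81, 7.28 and 7.69 in labelled male pesticide, and at 6.09, 6.58 and 7.62 against 7.08, 7.11 and 7.32 in the labelled female groups. The groups overlapped in both labelled sexes, and it rose by 0.69 ± 0.22 in labelled males (adjusted p = 0.0277). Oas3 was dim, well above background on 1, 5, 1 and 2 arrays of the 4 groups in the order of the labels above. Its difference of 0.41 ± 0.14 in labelled males (adjusted p = 0.032) rests on signals near the background. Labelled male pesticide was the only group with at least 4 such arrays, so Oas3 was tested through the group where it was higher. Its call therefore gives no support, although it is in the counts of members that rose, without array 4 in both labelled sexes. Mx1, the gene of a dynamin-like GTPase, rose by 0.77 ± 0.24 in labelled males (adjusted p = 0.0223). Whether a working protein is made was not measured. Ifit1, Oas1a, Oas1g, Oasl1, Oasl2 and Mx2 did not pass with all arrays in either labelled sex, with differences of 0.17 to 0.76 in labelled males; Oas1a and Oas1g are near copies whose probes may share signal.

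Of 9 other antiviral members, 1 (11.1%) rose in labelled males, close to the 11.6% of all probes called higher there. Ifi27l2a, a small mitochondrial and membrane protein, was at 10.37, 11.38 and 12.34 in labelled male control and 12.30, 12.69 and 13.44 in labelled male pesticide. It was at 11.21, 11.52 and 13.06 in labelled female control and 12.24, 12.58 and 13.04 in labelled female pesticide. The labelled male groups overlapped narrowly, and labelled female control 4 alone of its group reached the pesticide range. It rose by 1.36 ± 0.31 in labelled males (adjusted p = 0.00293), and the difference in labelled females was 0.82 ± 0.31 (adjusted p = 0.069), or 1.08 ± 0.28 (adjusted p = 0.00786) without array 4.

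Ifi44 was at 6.64, 7.42 and 10.21, then 8.50, 8.72 and 9.72, then 7.06, 7.75 and 9.89, then 8.35, 8.76 and 8.87 in the 4 groups in order. Rsad2, the enzyme viperin, which makes a chain-terminating nucleotide, was at 7.63, 7.91 and 9.70, then 8.31, 8.73 and 9.49, then 7.44, 8.55 and 9.11, then 8.68, 8.90 and 9.31 in the 4 groups in order. Bst2, the tetherin that holds budding virus at the membrane, was at 14.41, 14.55 and 15.37, then 14.21, 14.60 and 14.76, then 14.22, 14.65 and 15.81, then 14.32, 14.41 and 14.53. None of these differed enough to pass in either labelled sex, and in each the highest labelled control array exceeded the median of labelled pesticide. Isg15, Usp18, Xaf1, Zbp1 and Rtp4 did not pass either, with labelled male differences of 0.44 to 0.68. Averaged over the labelled sexes without array 4, Ifi44 (0.98 ± 0.30, adjusted p = 0.0125) and Rsad2 (0.57 ± 0.21, adjusted p = 0.0383) passed. There 3 of the 9 were called higher and 0 lower, beside 18% of all probes called higher.

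Among the sensors and transcription factors, Irf1 was the 1 of 6 (16.7%) that rose in labelled males, beside 11.6% of all probes called higher. Irf1 was at 11.79, 12.04 and 12.21 in labelled male control and 12.43, 12.61 and 12.90 in labelled male pesticide, without overlap, and at 11.68, 11.91 and 13.34 against 12.19, 12.36 and 12.64 in the labelled female groups. It rose by 0.58 ± 0.18 in labelled males (adjusted p = 0.0258), and the labelled female difference of 0.29 ± 0.18 (adjusted p = 0.292) was 0.54 ± 0.10 (adjusted p = 0.000408) without array 4. Labelled male control 4, the array with the highest type I mean, was not high for Irf1.

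Stat2 was at 11.79, 11.88 and 12.57, then 12.10, 12.20 and 12.43, then 11.68, 11.86 and 12.18, then 11.75, 11.95 and 12.17 in the 4 groups in order. Irf9, its DNA-binding partner, was at 11.29, 11.59 and 12.80, then 11.88, 11.996 and 12.23, then 11.28, 11.54 and 12.43, then 11.53, 11.86 and 12.05. Irf7 was at 12.89, 13.21 and 15.59, then 13.44, 13.70 and 14.57, then 13.02, 13.47 and 15.11, then 13.37, 13.65 and 14.17. All 3 overlapped between labelled diets and did not pass, and neither did the RNA sensors Ifih1 and Ddx58, with labelled male differences of 0.11 and 0.26.

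**Figure D4:**
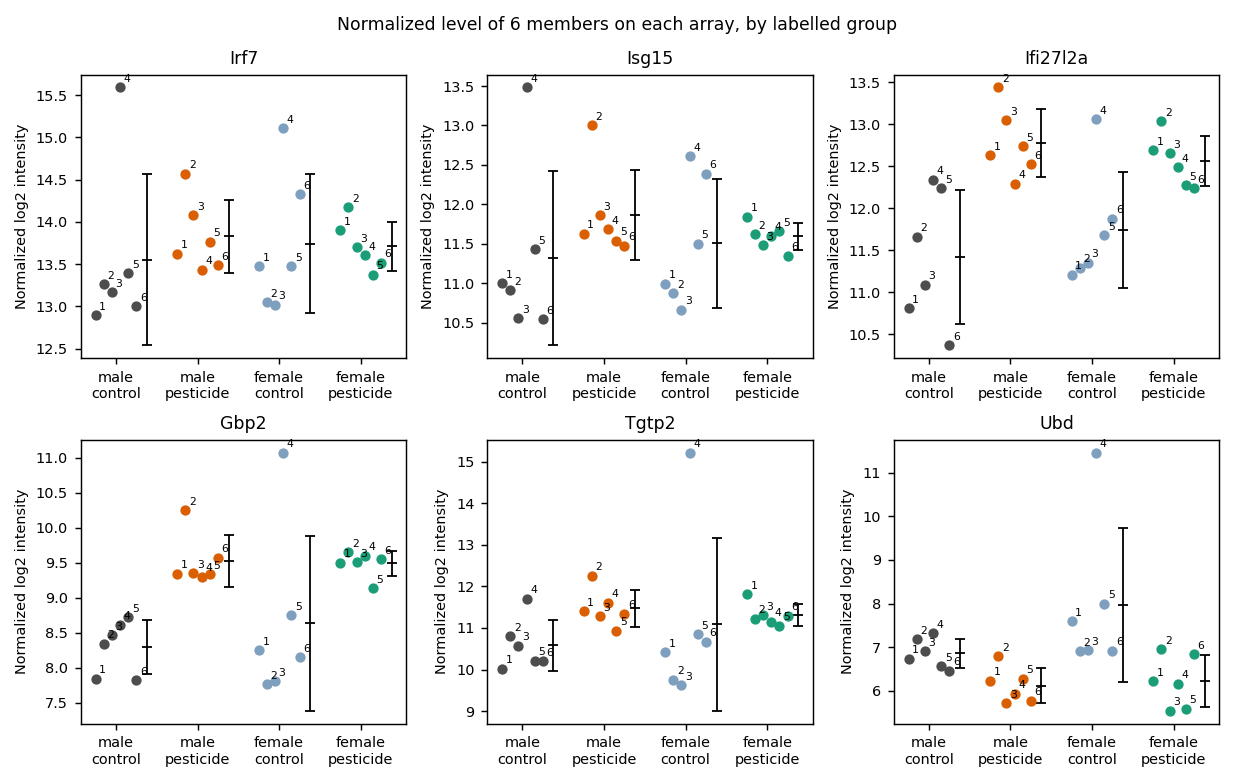
Normalized log2 intensity of Irf7, Isg15, Ifi27l2a, Gbp2, Tgtp2 and Ubd on each array by labelled group, chosen after their values were seen; points carry replicate numbers and bars are the mean with SD over 6 arrays. Labelled male control 4 is the highest array for Irf7 (15.59) and Isg15 (13.48), and labelled female control 4 for Gbp2 (11.07), Tgtp2 (15.22) and Ubd (11.46).

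Of 8 GTPases, Gbp2 and Gbp3 rose in labelled males and 0 in labelled females, beside 11.6% and 8.88% of all probes called higher. Without array 4, 3 rose in each labelled sex, with Tgtp2 the third, beside 12.4% and 10.1% of all probes. Gbp2 was at 7.82, 8.40 and 8.72 in labelled male control and 9.30, 9.34 and 10.25 in labelled male pesticide, and at 7.76, 8.20 and 11.07 in labelled female control and 9.14, 9.53 and 9.65 in labelled female pesticide. The labelled male groups did not overlap, and in the labelled female groups array 4 alone crossed the gap. It rose by 1.22 ± 0.36 in labelled males (adjusted p = 0.0179), and the labelled female difference of 0.86 ± 0.36 (adjusted p = 0.104) was 1.35 ± 0.19 (adjusted p = 2.9e-05) without that array.

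Gbp3 was at 8.08, 8.89 and 10.32, then 9.91, 10.21 and 11.40, then 8.41, 9.01 and 11.45, then 9.80, 10.24 and 10.45 in the 4 groups in order. It rose by 1.42 ± 0.39 in labelled males (adjusted p = 0.0114), and without array 4 the labelled female difference was 1.33 ± 0.29 (adjusted p = 0.00235). Guanylate-binding proteins are close paralogs, so probes may share signal. Gbp7 was at 7.10, 7.37 and 8.08, then 7.55, 7.72 and 8.40, then 7.26, 7.45 and 9.02, then 7.57, 7.80 and 8.11, and did not pass in either labelled sex. Igtp was at 11.57, 11.89 and 13.88, then 12.76, 12.88 and 13.73, then 11.51, 12.24 and 15.33, then 12.78, 12.84 and 13.17, and did not pass in either labelled sex. Averaged over the labelled sexes without array 4, Gbp7 (0.39 ± 0.11, adjusted p = 0.00762) and Igtp (0.77 ± 0.23, adjusted p = 0.00973) passed. In that comparison 6 of 8 GTPases were called higher, beside 18% of all probes. Tgtp2, a near copy of Tgtp1, had labelled female differences of 0.22 ± 0.59 (adjusted p = 0.839) with all arrays and 1.04 ± 0.27 (adjusted p = 0.00799) without array 4.

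Ubd went the other way. It was at 6.46, 6.82 and 7.32, then 5.71, 6.08 and 6.80, then 6.91, 7.26 and 11.46, then 5.54, 6.19 and 6.95 in the 4 groups in order. The groups overlapped at their edges in both labelled sexes, and array 4 was far above the rest. The difference in labelled females was -1.75 ± 0.51 (adjusted p = 0.0193), or -1.05 ± 0.26 (adjusted p = 0.00611) without array 4. In labelled males it was -0.74 ± 0.51 (adjusted p = 0.329), or -0.74 ± 0.25 (adjusted p = 0.035) without array 4. Psmb9 and Psmb8, subunits of the immunoproteasome, and Tap1, a subunit of the peptide transporter, did not pass. Psmb9 was at 11.12, 12.16 and 12.48, then 11.48, 11.70 and 12.48, then 11.65, 11.77 and 13.93, then 11.48, 11.75 and 12.01 in the 4 groups in order. Tap1 was at 9.74, 10.02 and 10.98, then 9.98, 10.18 and 10.39, then 9.68, 9.85 and 11.75, then 9.79, 10.07 and 10.33. Psmb8 was at 11.61, 11.95 and 12.55, then 11.89, 12.06 and 12.62, then 11.58, 11.93 and 13.32, then 11.70, 12.07 and 12.24. For these 3, labelled female control array 4 was the highest of its group.

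The chemokines Cxcl9 and Cxcl10 both draw T cells through the receptor CXCR3. Cxcl9 was at 8.96, 9.38 and 10.13, then 10.10, 10.54 and 11.10, then 8.999, 9.46 and 12.89, then 10.34, 10.73 and 11.06 in the 4 groups in order. The labelled male groups overlapped narrowly, and only array 4 crossed the labelled female groups. With all arrays it passed on average over the labelled sexes (0.93 ± 0.30, adjusted p = 0.0179) but not in labelled males alone (1.10 ± 0.42, adjusted p = 0.0638). Without array 4 it passed in labelled males (1.10 ± 0.19, adjusted p = 0.000213) and in labelled females (1.34 ± 0.20, adjusted p = 5.69e-05). Cxcl10 was at 8.00, 8.21 and 8.61, then 8.63, 9.24 and 10.19 in the labelled male groups without overlap, and at 8.42, 8.78 and 11.62, then 9.03, 9.59 and 10.07 in the labelled female groups. It rose by 1.05 ± 0.37 in labelled males (adjusted p = 0.0418), and the labelled female difference without array 4 was 0.77 ± 0.21 (adjusted p = 0.0131).

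No member passed for the interaction of labelled sex and diet or for labelled female against male on either diet label, with or without array 4. Over all probes 0% were called in each of these 3 comparisons with limma and all arrays; without array 4, 1 probe was called for the labelled sexes on the pesticide label. With all arrays and an unadjusted p under 0.05, 0 members passed for the interaction, 2 for the sexes in labelled control and 1 in labelled pesticide, and 1265, 1792 and 1311 probes of all. The calls that passed in labelled males and not in labelled females are therefore not shown to differ between them; for Ubd the interaction was -1.01 ± 0.73 (adjusted p = 1).

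Other genes of the pathway were taken from lists of 56 genes, chosen by role. Their counts stand beside 11.6% of all probes called higher in labelled males and 8.88% in labelled females. Without array 4 these shares were 12.4% and 10.1%. Of 11 ligands, receptors and kinases tested, 2 rose in each labelled sex: Ifngr1, a chain of the interferon gamma receptor, by 0.46 and 0.32, and Il10rb, a chain shared by the lambda interferon receptor, by 0.72 and 0.55. Ifnb1, the gene of interferon beta, was too dim to be tested. Of 10 sensing and adaptor genes, Irf3 (0.22) and Tmem173, the adaptor STING (0.66), rose in labelled males and 0 in labelled females, or Tmem173 (0.51) without array 4. Of 6 regulators, Irf2, a repressor at the ISRE, fell by 0.57 and 0.44 on the log2 scale, and Irf8 and Ciita, the MHC class II activator, rose by 0.84 and 1.02 in labelled males, and by 0.78 and 0.56 in labelled females without array 4.

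Of 27 other targets tested, 4 rose (14.8%) and 1 fell in labelled males and 1 rose (3.7%) in labelled females. Over all probes, 11.6% and 8.88% were called higher in labelled males and females, so these counts were not far from that share. Without array 4, 6 rose and 1 fell in labelled males and 5 rose in labelled females, beside 12.4% and 10.1% of all probes called higher. Gbp5, a relative of Gbp2 that promotes inflammasome assembly, rose in both labelled sexes, by 3.66 ± 0.31 (adjusted p = 5.85e-09) and 3.04 ± 0.31 (adjusted p = 1.84e-07). It lay between 9.21 and 9.45 on all 12 labelled control arrays, and at 9.26 on array 4, where Gbp2 and Gbp6 were at their highest, and between 11.06 and 13.79 on the labelled pesticide arrays. Samd9l rose by 0.76 and Tapbp by 0.35, and Trim25, the ligase that activates RIG-I, fell by 0.58 in labelled males.

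Markers of other cells were also compared between the labelled diets. Their counts stand beside 11.6% of all probes called higher in labelled males and 8.88% in labelled females. Without array 4 these shares were 12.4% and 10.1%. Kupffer cell markers were higher for 10 of 12 in each labelled sex, with list means of 9.84 to 11.50 in labelled male control and 11.20 to 11.88 in labelled male pesticide, and of 9.72 to 11.68 and 10.79 to 12.19 in the labelled female groups. T and NK cell markers were higher for 3 of 12 in labelled males (list means of 7.47 to 8.07 against 8.27 to 8.80) and for 1 of 12 in labelled females (7.40 to 9.87 against 8.23 to 8.55), and without array 4 for 8 of 12 in each. Dendritic cell markers, of which Bst2 is also a member, were higher for 4 of 9 and 0 of 9 (5 and 4 without array 4), B and plasma cell markers for 4 of 8 and 0 of 8 (4 and 1 without it), endothelial markers for 5 of 8 and 7 of 8, and neutrophil markers for 3 of 7 and 4 of 7; the Kupffer, endothelial and neutrophil counts were the same without array 4. Their part in the members' differences was not tested.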

How the data were processed

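Liver RNA of 24 arrays was read by the scanner as spot intensity, and the deposited files hold the median, background and processed intensity of each spot, extracted with Agilent Feature Extraction 10.10.1.1, per the submitters' processing notes. In the deposited table the values are log2 values that the authors filtered and quantile normalized, per the labels. Here the median signal of 56605 probes (control spots left out, outlier spots set to missing) was quantile normalized on the log2 scale. The 32078 probes well above background on at least 4 of 6 arrays of a group were fitted with limma 3.58.1 (R 4.3.3; 1 mean per labelled group, 24 arrays, no block), two-sided, with Benjamini-Hochberg adjustment over all of them at 0.05. Each slide of 3 held 2 arrays of each group. Arrays give no counts, and their number limits the precision.

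A gene was read from its brightest probe; 20 members had more than 1. All 40 members may be named, with values in every group for up to 4 per role with the smallest p for the mean labelled diet effect. The members and lists were chosen with earlier results of these data known. The fit was tested on simulated data. Of the pathway lists, 1 gene is not reported here. Alternatives were background correction, scaling, filters, blocks, slides, weights, the deposited table, core families, other motif forms and leaving out each array; leaving out the outlying array with a recomputed filter was added after the data were seen.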

Additional observations from a re-analysis of the deposited data

Results flagged for a closer look

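In 172 sets of 6 arrays, each being a member or a list mean in 1 labelled group, 37 were flagged. In these, the gap of an end array to its neighbour took more of the range than Dixon's critical value allows. Chance gives about 1 in 20 for a single set. The members move together on the same arrays, so the sets are not independent and their count measures no excess over chance. The share of the range taken by the gap is given for each flagged set. Labelled male pesticide array 2 was the highest of its group, with a share of 0.738 for the mean of all members, 0.838 for the mean of gamma-type members, 0.665 for Ifit1, 0.748 for Isg15, 0.777 for Ifi44, 0.652 for Zbp1, 0.712 for Gbp2, 0.657 for Gbp3, 0.667 for Igtp and 0.655 for Psmb8. Labelled male control array 4 was the highest of its group, with a share of 0.628 for the mean of gamma-type members, 0.674 for Ifit1, 0.699 for Isg15, 0.650 for Oas1g, 0.667 for Mx2, 0.630 for Ifi44, 0.816 for Irf7, 0.723 for Gbp6, 0.722 for Igtp and 0.705 for Irgm1. Labelled female control array 4 was the highest of its group, with a share of 0.794 for the mean of gamma-type members, 0.641 for Ifi27l2a, 0.631 for Zbp1, 0.814 for Irf1, 0.703 for Gbp2, 0.692 for Gbp3, 0.752 for Gbp7, 0.779 for Tgtp2, 0.760 for Cxcl9, 0.767 for Cxcl10, 0.678 for Psmb8, 0.799 for Psmb9, 0.774 for Tap1 and 0.761 for Ubd. Labelled female pesticide array 6 was the lowest of its group, with a share of 0.781 for Ifit3. Labelled female pesticide array 5 was the lowest of its group, with a share of 0.704 for Gbp2. Labelled female pesticide array 1 was the highest of its group, with a share of 0.656 for Tgtp2. Of the sets for single members, 13 had their end array at labelled female control 4, 9 at labelled male control 4 and 8 at labelled male pesticide 2. What sets these arrays apart was not tested.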

How the results depend on the processing

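The counts of members called depended on single arrays and slides. In labelled males, 10 members became 0 on slide 2 alone, 1 on slide 3 alone and 16 with array weights. The number of all probes called went from 7131 to 583, 459 and 9171 in these settings. When each array was left out, the labelled male count of members was 5 to 18. In labelled females, 1 became 2 with the processed signal scaled and 0 with probes well above background on all arrays (where 36 members were tested). It became 6 on slide 1 alone, 0 on slides 2 and 3, 0 with only the compared arrays and 9 with array weights. In the same order, all probes called went from 5878 to 6058, 5378, 1041, 319, 346, 4698 and 6363. When each array was left out, the labelled female count of members was 1 to 13. For the mean of labelled sexes, 12 became 24, 0 and 4 on slides 1, 2 and 3 alone and 20 with array weights. All probes called went from 11593 to 3499, 1525, 1792 and 12798 in these settings. With each array left out, the count of members for the mean was 11 to 19. Leaving out the outlying array with the filter recomputed, chosen after seeing the data, gave 13 and 19 for the last pair of comparisons. Of all probes, 20.4% and 37.6% were called there. The slides alone hold 2 arrays of each group, so fewer samples enter; the cause of the other shifts was not tested. Counts for the interaction and the sexes stayed at 0 in every setting run. The shared variation of gamma-type members went from 85.3% to 65.3% without labelled female control 4, and on the gene strand alone the ISRE core was in 6 type I and 4 gamma-type promoters. On a single slide, chosen after seeing the data, list mean differences in labelled females moved by more than the pooled SD on slide 1 (0.749 for all members, 0.793 for type I and 0.676 for gamma-type) and, for gamma-type members, on slide 2 (-0.621). In the other settings run they moved by less; with each array left out, the gamma-type difference in labelled females ran from -0.08 to 0.50. The replicate numbers did not pair the samples (correlations of deviations -0.118 to 0.220); with a replicate block the counts were 10, 1 and 15. Of 937 settings for single called genes, 829 kept the call, 108 lost it and 0 reversed.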

Other observations

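Ifnb1, the interferon beta gene, was well above background on 2 arrays, labelled male control 5 (6.80) and labelled female control 5 (5.77), and lay between 5.15 and 5.45 on the other labelled control arrays. Neither array was the highest for any member. Socs1, an inhibitor of interferon signalling, was at 8.53 on labelled female control 4 and 7.82 on labelled female control 6, against 6.21 to 6.72 on the other 4 arrays of that group.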
